A study of Mus musculus with 32 samples.

Results

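The step from postnatal day 3 (P03) to postnatal day 5 (P05) in whole kidneys of C57BL/6 mice is described here, as the arrays titled P05 minus those titled P03. It rests on 7 of the 32 two-colour arrays of the series, 4 at P03 and 3 at P05. All genes were taken, and 16908 of 18999 genes with a value could be tested. On every array, RNA of a kidney named as normal carried Cy5 and a universal mouse reference RNA, the same for all arrays, carried Cy3, with no dye swap named. The P03 and P05 groups share strain, tissue and reference, and no genotype or agent separates them. One protocol text speaks of ureteral obstruction, and the source names, which say normal kidney, were followed. How many animals stand behind an array or a stage is not stated in the labels, so p-values measure only the spread between arrays.

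The mouse kidney still makes nephrons at birth and stops within the first days of life. Nephron progenitors, the cap mesenchyme around the tips of the ureteric bud, keep themselves through Six2 and its partners and turn into epithelium when Wnt signals reach them. The new epithelium passes through renal vesicle and S-shaped body stages, in which Lhx1, Fgf8 and the Notch pathway set up the segments of the nephron. In whole kidney RNA, fewer cells of a type and less RNA per cell cannot be told apart.

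Values are log2 ratios of kidney to reference, and differences are P05 minus P03 with the standard error (SE) of the fit after the sign ±. The kidney lists come first. Proximal tubule genes had a list median between 4.31 and 5.08 on the P03 arrays and between 4.72 and 5.22 on the P05 arrays. The thick ascending limb list lay between 3.61 and 5.17 at P03 and between 3.87 and 4.78 at P05, and the podocyte list between 2.75 and 3.13 and between 3.01 and 3.05. The labels name the dyes but not the direction of the deposited ratio, which was read from these lists, all on 1 side of 0 on every array, so their sign is no check of the label. Between 16479 and 17658 genes were measured on each of the 7 arrays.

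The arrays did not separate cleanly by stage. Over 15149 genes measured on all arrays, the correlation of 2 arrays of the same stage ran from 0.926 to 0.963, and that of a P03 with a P05 array from 0.915 to 0.980. The highest value, 0.980, joined P03 array 2 with P05 array 2. Both carry image numbers of the same 1 of 3 series of numbers in the labels, here called image runs. P03 arrays 1, 3 and 4 and P05 array 1 belong to run 3, P03 array 2 and P05 array 2 to run 1, and P05 array 3 to run 2. Xist, which marks female tissue, was at 2.36 on P03 array 3 and at 2.57 and 2.41 on P05 arrays 2 and 3, and between -6.15 and -5.45 on the other 4 arrays. The Y-linked gene Eif2s3y went the opposite way, from -8.23 to -4.77 on the former and 1.76 to 2.40 on the latter. RNA of female type was thus present on 1 of 4 P03 arrays and on 2 of 3 P05 arrays. Blocking on the image run, or adding Xist as a covariate, gave the further values that stand beside the main genes.

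The start regions of Six2 and Hes5 are shown, 1 gene of the progenitor and 1 of the early nephron list. These genes differed in opposite directions, but neither passed the test described below. Hes5 does not stand for its list, of which 14 members lay above 0 and 12 below. Each sequence is the 250 bases before the transcription start, from RefSeq on GRCm38.p6, 5′ to 3′ on the strand of the gene. Six2 is on the minus strand at chr17:85688255-85688504 and Hes5 on the plus strand at chr4:154960673-154960922. Capitals mark matches to TGGGAA, the core of the site bound by the Notch effector RBPJ, on either strand.
Six2: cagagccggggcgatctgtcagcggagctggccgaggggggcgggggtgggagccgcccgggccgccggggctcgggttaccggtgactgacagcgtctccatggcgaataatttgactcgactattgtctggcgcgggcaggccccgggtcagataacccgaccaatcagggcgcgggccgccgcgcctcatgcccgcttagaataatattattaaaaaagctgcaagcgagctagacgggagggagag
Hes5: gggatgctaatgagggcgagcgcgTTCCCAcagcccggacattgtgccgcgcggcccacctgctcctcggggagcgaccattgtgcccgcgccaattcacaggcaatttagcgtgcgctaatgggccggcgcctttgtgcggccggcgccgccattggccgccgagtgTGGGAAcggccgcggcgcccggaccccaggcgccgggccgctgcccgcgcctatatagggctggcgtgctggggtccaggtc
Hes5 had 2 matches, the first starting 226 bases and the second 82 bases before the start, and Six2 had 0. Of 32851 start regions of this length, 21.6% held TGGGAA on either strand. Counted by start region as well, 6 of 20 of early nephron genes held it and 2 of 26 of progenitor genes. Counted by gene, with a match in any of its start regions, these were 6 of 17 and 2 of 18.

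The first question is which genes differ between P03 and P05. In the fit over all 32 arrays with 1 mean per stage (limma, moderated test), 0 of 16908 genes passed an adjusted p of 0.05 (0% called). The lowest adjusted p in limma's test was 0.163. At an unadjusted p under 0.05, 309 genes were higher at P05 (1.83%) and 183 were lower (1.08%), together 492 (2.91%). This is below the share of 0.05 that such a p would mark if no gene differed. The same share was 8.06% for P03 minus P01 and 7.68% for P07 minus P05. Over all 16908 genes tested, 8807 differences lay above 0 and 8099 below, the background for the counts by sign in the lists below. A difference of at least 2-fold was found for 171 genes upward and 101 downward, and the median SE of a gene was 0.29. Among 15912 genes measured on all 7 arrays, the single arrays did not overlap for 333 genes higher at P05 (2.09%) and 167 lower (1.05%). With the image run as a block, 3 genes passed (0.0177%). Of these, Eya1 and Cdh22 fell and Krt222 rose. Without P05 array 1, 8 genes passed, 5 higher and 3 lower, and without P03 array 2, Eya1 alone passed.

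Among nephron progenitor genes, the lowest differences belonged to Eya1 and Six2, which work together in the progenitor. Of 25 members tested, 20 lay below 0 and 5 above, with a median of -0.25 against 0.01 over all genes tested. Of these, 4 were lower at an unadjusted p under 0.05 (Eya1, Six2, Traf1 and Cited1), and 0 passed the adjusted threshold. Over all genes tested, 1.08% were lower at that p. The arrays of P03 and P05 did not overlap for 3 members lower at P05 (Eya1, Six2 and Capn6), against 1.05% of all genes, and for 0 higher, against 2.09%. The list was drawn up with earlier results of these arrays known, so its direction is not independent evidence. On the 4 P03 arrays the median of the list was 1.68, 2.23, 2.21 and 1.83, and on the 3 P05 arrays 1.66, 1.86 and 0.63. P05 array 3 was the lowest, P05 array 2 lay within the P03 range and P05 array 1 just below it. Without P05 array 3 the median difference of the list was -0.089, and within run 3, whose only P05 array is array 1, it was 0.043. With the image run as a block the median was -0.26, and 1 member, Eya1, passed. In the fit over all arrays with stage alone and equal weights, 0 members passed, while Eya1 passed in 5 other settings. The list median was above 0 on every array of both stages. It was also above 0 at P21 (0.50 to 0.88), so its sign alone does not set P03 and P05 apart from later stages. The step is therefore named by its days.

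Eya1, a coactivator and phosphatase that partners Six2, was at 1.15, -0.27, 1.18 and 0.93 on the P03 arrays and at -0.43, -1.46 and -1.29 on the P05 arrays. All P05 values were below all P03 values, but P03 array 2 lay only just above P05 array 1. The difference was -1.81 ± 0.35 (95% interval -2.53 to -1.09), a level 3.50-fold lower at P05. In limma's test the unadjusted p was 2.15e-05 and the adjusted p 0.163. With the image run as a block, Eya1 fell by 1.53 (adjusted p = 8.68e-05, limma). Within run 1 its difference was -1.19 and within run 3 it was -1.52, each resting on 1 P05 array. With Xist as a covariate the difference was -1.79 (adjusted p = 0.221 in limma). Its 2 probes differed by -1.86 and -1.76.

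Six2, the homeobox factor that keeps progenitors from differentiating, was at 1.65, 2.44, 2.54 and 1.57 at P03 and at 0.92, 1.02 and 0.39 at P05. Every P05 array was below every P03 array. The difference of -1.28 ± 0.38 (interval -2.06 to -0.49, 2.42-fold lower) had an adjusted p of 0.774 in limma's fit and 0.712 with the image run as a block. With Xist as a covariate it was -1.26, within run 1 it was -1.43 and within run 3 it was -0.996. Cited1, a coactivator of the self-renewing part of the cap, was at 2.26, 3.06, 3.60 and 2.00 at P03 and at 2.22, 2.08 and 1.53 at P05. Its groups overlapped, since P03 array 4 was below 2 of the P05 arrays, and the difference was -0.79 ± 0.34, or -0.75 with the image run as a block (adjusted p = 1.00, limma).

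Traf1, an adaptor of tumour necrosis factor receptors, had a difference of -0.93 ± 0.37 that rested on P03 array 3. That array was at 1.17, while the other P03 arrays were between -1.59 and -1.08 and the P05 arrays between -1.90 and -1.34. Without P03 array 3 the difference was -0.31. Gdnf, the ligand by which the cap calls the ureteric bud, differed by -0.70 ± 0.35 with overlapping arrays. Uncx, a homeobox gene, differed by -0.67 ± 0.37, with only P05 array 3 (0.63) below the P03 range of 2.32 to 3.03. Without that array the difference was 0.016, and a second, unused probe gave 0.12. Tmem100, a membrane protein, differed by -0.53 ± 0.52.

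Other regulators that the cap shares with later cells lay closer to 0. Pax2 differed by -0.43 ± 0.43, Sall1 by -0.32 ± 0.41 and Osr1 by -0.25 ± 0.28. Wt1, which podocytes also express, differed by -0.10 ± 0.23, with an interval of -0.58 to 0.37. Capn6, a calpain without protease activity, ranged from 1.67 to 2.00 at P03 and from 1.29 to 1.60 at P05. It rests on 1 of 2 probes, with a difference of -0.30, while the unused probe gave 0.54. Crym, a thyroid hormone binding protein, had the highest difference of the list, 0.24 ± 0.33.

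**Figure D1:**
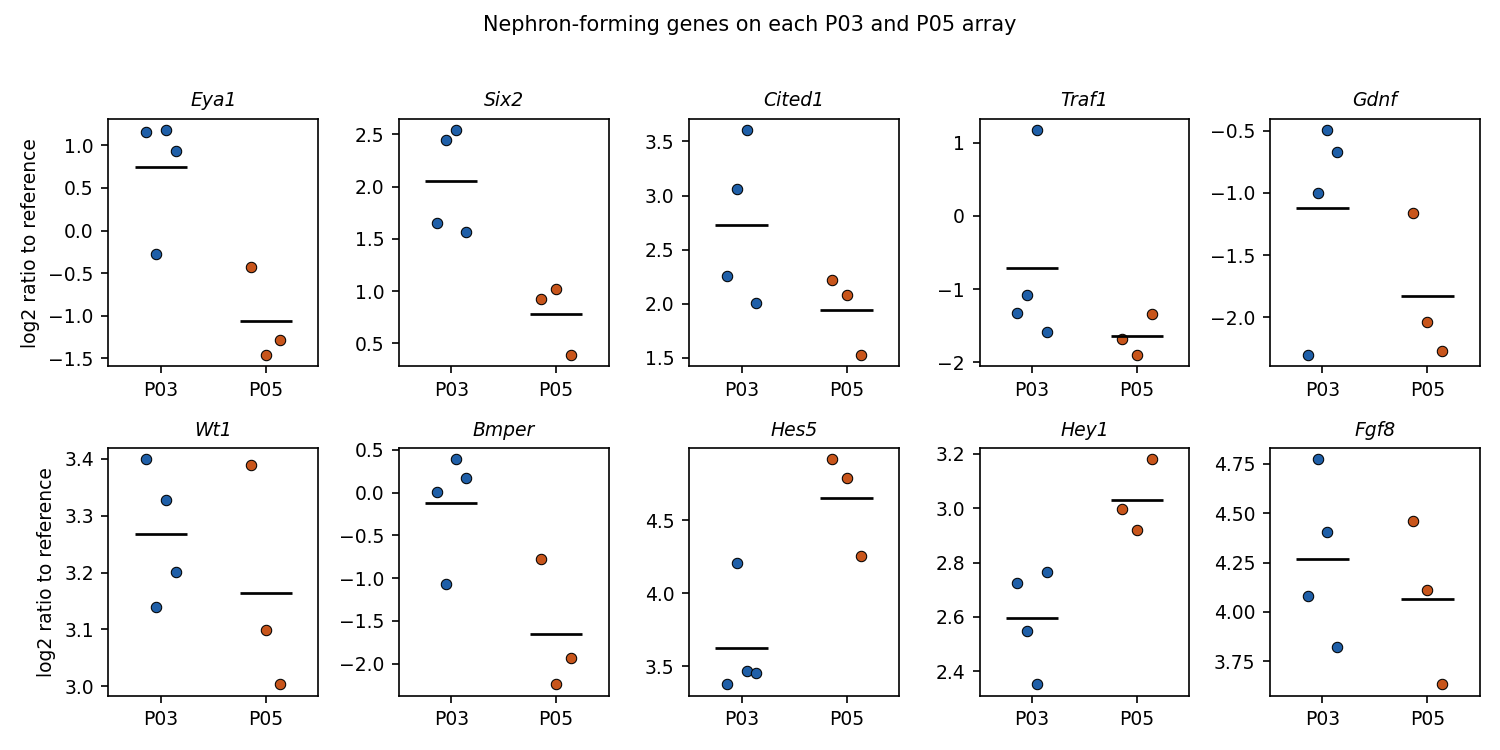
Each panel plots the log2 ratio to the reference of 1 gene (vertical axis, its own range) on the 4 P03 arrays (blue) and the 3 P05 arrays (orange), with bars at the group means. Eya1 and Six2 do not overlap and are lower at P05, Hes5 and Hey1 do not overlap and are higher, and the other 6 genes overlap.

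Genes of the early nephron lay on both sides of 0. Of 26 members tested, 14 were above 0 and 12 below, with a median of 0.03. At an unadjusted p under 0.05, 1 was higher (Hes5), against 1.83% of all genes, and 1 lower (Bmper), against 1.08%, and 0 passed the adjusted threshold. With the image run as a block the median was 0.02. The arrays did not overlap for 2 members higher at P05, Hes5 and Hey1, against 2.09% of all genes, and for 0 lower. Both encode repressors that Notch signalling switches on.

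Hes5 was at 3.37, 4.21, 3.47 and 3.45 at P03 and at 4.92, 4.79 and 4.25 at P05. P03 array 2 nearly reached P05 array 3, and the other arrays were apart. The difference was 1.03 ± 0.34 (interval 0.32 to 1.74), a 2.04-fold higher level, with an unadjusted p of 0.00597 and an adjusted p of 1.00 in limma's fit. It was 1.02 with the image run as a block (adjusted p = 0.960, limma), 1.11 with Xist as a covariate, 0.59 within run 1 and 1.49 within run 3. Hey1 was at 2.72, 2.55, 2.35 and 2.77 at P03 and at 3.00, 2.92 and 3.18 at P05, a difference of 0.43 ± 0.27. Its unadjusted p was 0.121 in limma's fit. With the image run as a block the difference of Hey1 was 0.25 ± 0.23 (unadjusted p = 0.290, limma). Dll1, a Notch ligand, ranged from 3.38 to 3.82 at P03 and from 3.60 to 4.26 at P05.

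Bmper, a secreted protein that binds BMPs, had the lowest difference of the early nephron list. Its P03 values were 0.01, -1.06, 0.39 and 0.17 and its P05 values -0.77, -2.24 and -1.93, so that P03 array 2 lay below P05 array 1. The difference was -1.52 ± 0.36 (interval -2.26 to -0.79, adjusted p = 0.289 in limma), and -1.38 with the image run as a block (adjusted p = 0.240, limma). It passed without P05 array 1, at -1.96 (adjusted p = 0.0441, limma). Fgf8, needed for survival of the new epithelium, differed by -0.20 ± 0.33. Wnt4, the signal for conversion to epithelium, differed by -0.16 ± 0.46, and Lhx1, a factor of the renal vesicle, by -0.02 ± 0.39. Sox9 differed by -0.04 ± 0.31 and Dkk1, a Wnt antagonist, by 0.32 ± 0.63. For Wnt4, Fgf8, Lhx1 and Sox9 the sign depended on the processing.

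Genes of the ureteric bud tip, the branching end that receives Gdnf, lay mostly below 0. Of 17 members tested, 14 were below 0 and 3 above, with a median of -0.21 (-0.12 with the image run as a block). At an unadjusted p under 0.05, 1 was lower, against 1.08% of all genes, and 0 passed the adjusted threshold. That 1 was Slco4c1, an organic anion transporter that mature tubules also use. It was at 4.77, 4.93, 4.87 and 4.32 at P03 and at 2.63, 4.17 and 3.21 at P05, all P05 arrays being below the P03 range. Its difference was -1.38 ± 0.54 (adjusted p = 1.00 in limma), or -1.32 with the image run as a block. The stage mean of Slco4c1 was 4.72 at P03, 3.34 at P05 and 2.44 at P07. It later rose above the P03 mean, to 5.60 at P14 and 6.85 at P21. Etv4, a factor downstream of Ret, differed by -0.79 ± 0.53, and Wnt11, a tip ligand, by -0.43 ± 0.33. Ret, the Gdnf receptor, differed by 0.50 ± 0.47 over 2 measured P05 arrays of 1 of its 10 probes. Single Ret probes gave differences from -1.18 to 1.00, so its direction depends on the probe. Its partner Gfra1 differed by -0.31 ± 0.65.

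Stromal progenitor genes had a median of -0.03 (-0.13 with the image run as a block) over 18 members tested, 10 below 0 and 8 above. Ecm1, a matrix protein, was the 1 member at an unadjusted p under 0.05, against 2.91% of all genes in either direction. It was at -0.26, -0.52, -0.73 and -0.71 at P03 and at -0.91, -0.75 and -1.54 at P05, where P05 array 2 was barely below P03 array 3. Its difference was -0.52 ± 0.22. Foxd1, the forkhead factor that defines these cells, differed by -0.37 ± 0.37 and Meis1 by -0.28 ± 0.24, both with overlapping arrays.

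**Figure D2:**
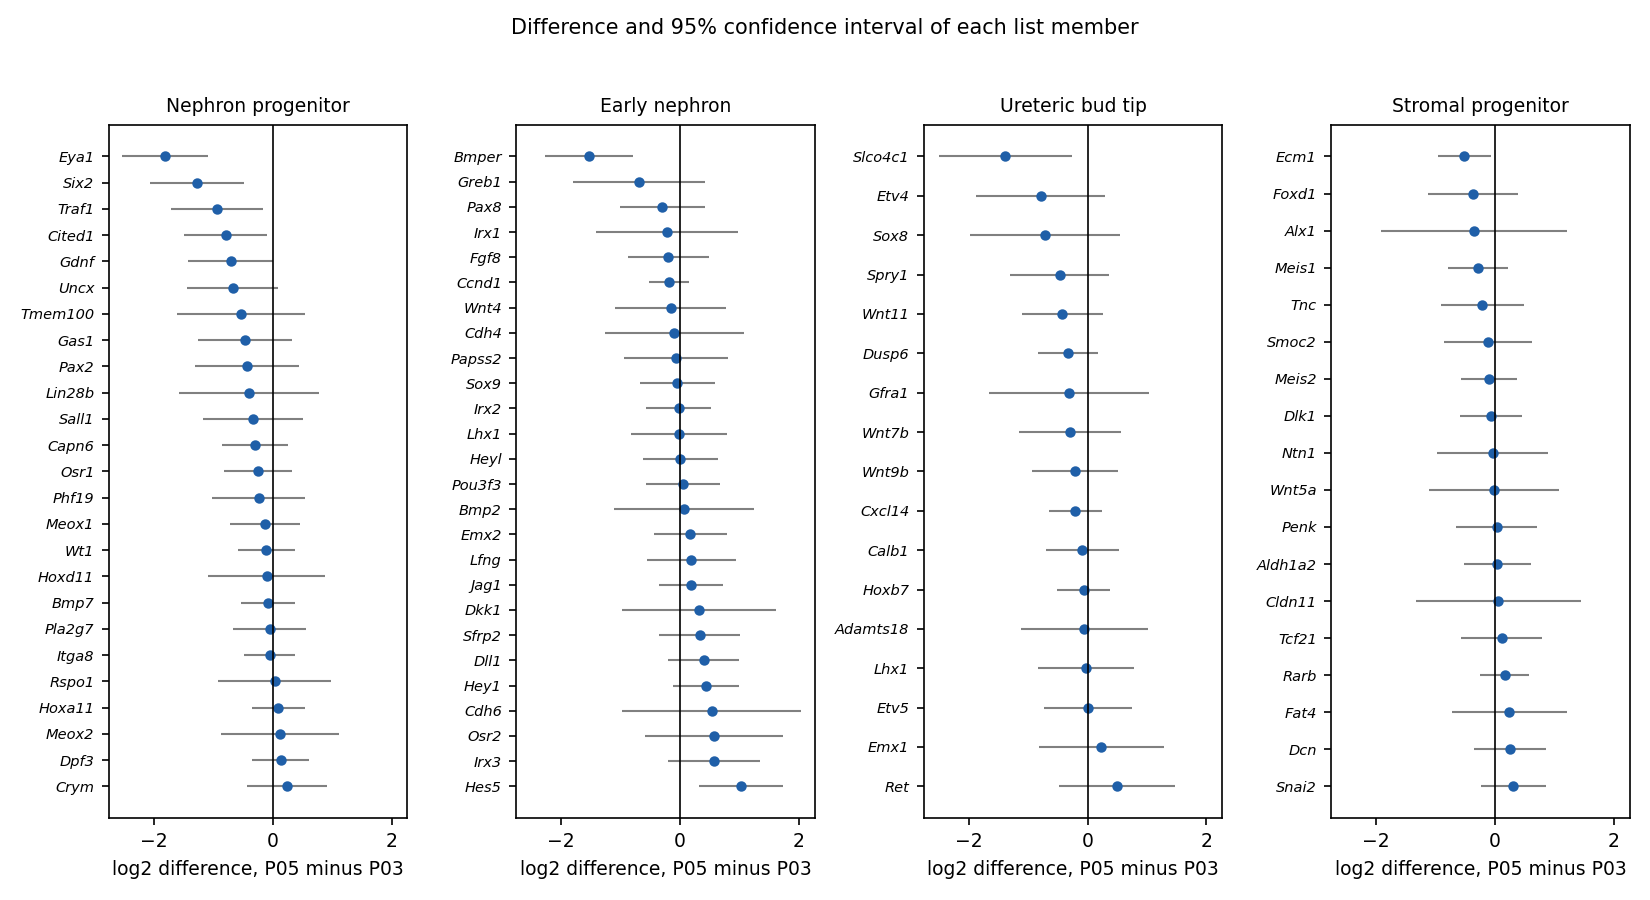
Points are the log2 difference P05 minus P03 of each member of 4 gene lists and lines its 95% confidence interval from the fit over all arrays, not adjusted for multiple tests. Progenitor members lie mostly left of 0, with Eya1 (-1.81) and Six2 (-1.28) lowest, whereas the early nephron list runs from Bmper (-1.52) to Hes5 (1.03).

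The levels at all 10 stages place the step. Six2 went from 2.92 ± 0.23 (SD, n = 3) at embryonic day 19 (E19) to 2.54 ± 0.41 at P01 and 2.05 ± 0.51 (n = 4) at P03. It was 0.78 ± 0.34 at P05 and -0.76 ± 0.10 at P07, and its mean stayed between -1.47 and -0.76 from P07 to P35. The P05 mean thus lay between the level of the nephron-forming kidney and that of later stages. Eya1 was 1.39 ± 0.40 at E19, 1.53 ± 0.68 at P01, 0.75 ± 0.69 at P03, -1.06 ± 0.55 at P05 and -2.03 ± 0.13 at P07, and between -2.69 and -2.11 afterwards. Cited1 went from 2.73 ± 0.74 at P03 to 1.94 ± 0.37 at P05 and 1.59 ± 0.42 at P07. Its mean was then 1.20 at P10, 1.98 at P14, 1.99 at P21, 0.22 at P28 and 0.14 at P35. The P05 mean of Cited1 was thus near those of P14 and P21. Hes5 had its highest stage mean at P05, 4.66 ± 0.35, followed by 0.58 ± 0.91 at P07 and means between -1.07 and -0.49 from P10 on. E19, at 4.21 ± 0.31, was the next highest, and the E19 and P05 arrays overlapped.

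The step shares its P03 arrays with P03 minus P01 and its P05 arrays with P07 minus P05, so the values stand side by side. P03 minus P01 had 13 calls among 16954 genes (0.0767%), and P07 minus P05 had 36 lower (0.214%) and 8 higher (0.0477%) among 16789 (limma). With the image run as a block, P07 minus P05 had 132 calls (0.786%). The list median of progenitor genes was -0.14 for P03 minus P01, -0.25 for P05 minus P03 and -0.29 for P07 minus P05. That of early nephron genes was 0.14, 0.03 and -0.75. Among early nephron genes, 0 passed for P05 minus P03 and 5 fell from P05 to P07: Hes5, Fgf8, Hey1, Sox9 and Bmper. With the image run as a block these 5 passed, Wnt4 also fell, by 1.83 (adjusted p = 0.0319, limma), and Eya1 fell by 0.77 (adjusted p = 0.0428, limma).

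Hes5 fell by 4.07 from P05 to P07 (SE 0.37, adjusted p = 5.28e-07, limma), Fgf8 by 2.39 and Hey1 by 1.82. Eya1 differed by -0.78 from P01 to P03, by -1.81 from P03 to P05 and by -0.97 from P05 to P07. For Six2 these were -0.49, -1.28 and -1.54. The difference between steps was tested for every gene. Against P07 minus P05, 1 of 16695 genes passed (0.00599%), Hes5, whose 2 steps differed by 5.10 (adjusted p = 2.19e-04, limma). Against P03 minus P01, 0 of 16753 passed in limma (0%), with 540 at an unadjusted p under 0.05 and 1 call, Krt222, with the image run as a block. Neither test gave a call for Eya1 or Six2.

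**Figure D3:**
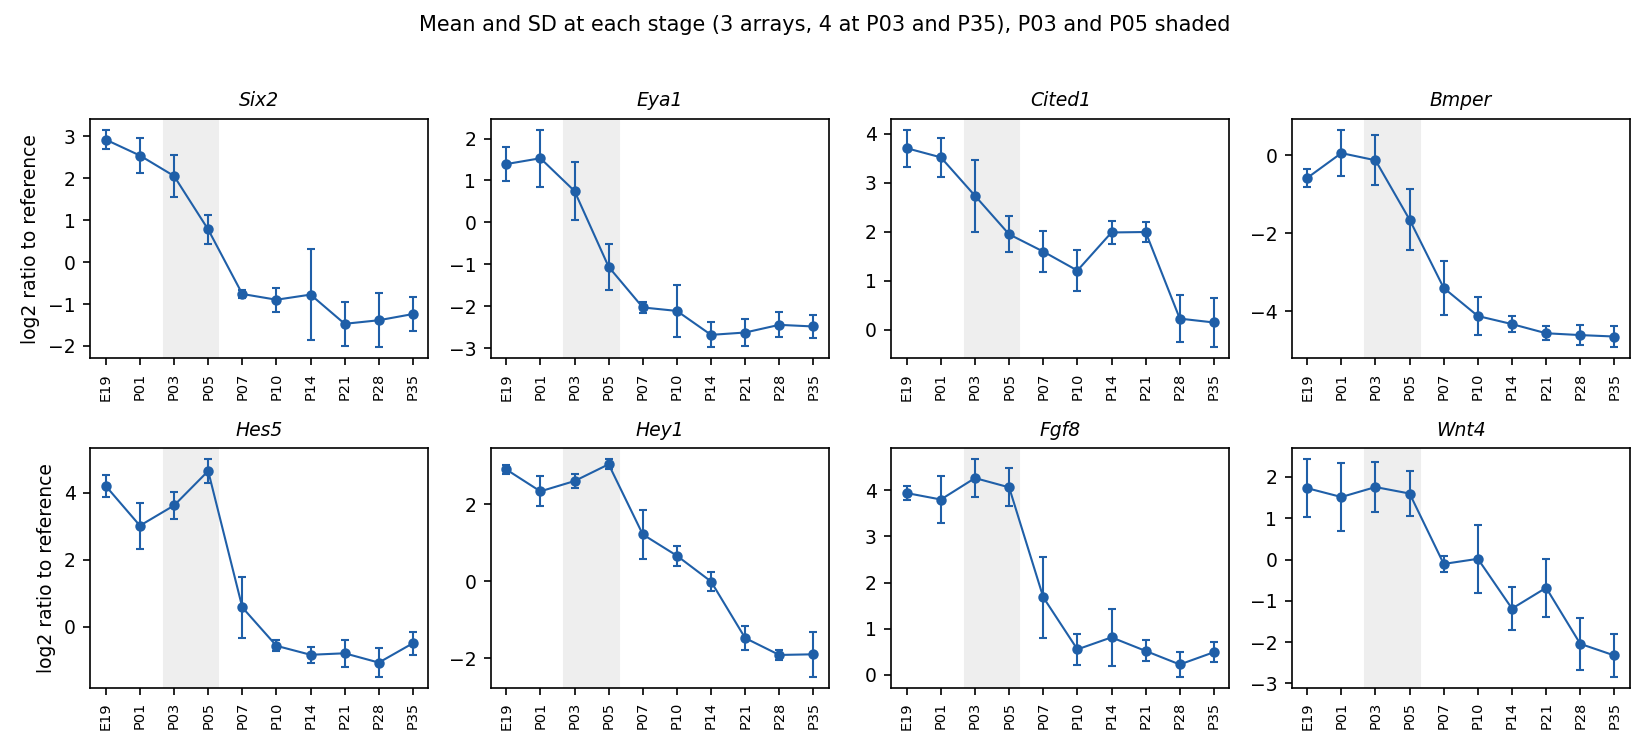
Points are stage means of the log2 ratio to the reference and bars the SD over arrays at 10 stages in order of age, not to scale in time, with P03 and P05 shaded. The P05 means of Six2, Eya1 and Bmper lie below those of P03, the P05 means of Hes5 and Hey1 lie above them, and the P05 means of Fgf8 and Wnt4 lie less than 1 SD of the P03 arrays below them.

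The leading genes on either side were taken by unadjusted p among genes whose arrays did not overlap. Their lack of overlap was thus fixed by the choice and is no result. All 24 missed the adjusted threshold in the fit over all arrays. Those higher at P05 were Krt222, Ang3, Pla2g5, Ang4, Glod5, Fabp7, Dio1, Olfr1442, 1700007K13Rik, Serpind1, Adam25 and Irx3os. Over all stages, Olfr1442, 1700007K13Rik, Serpind1, Adam25 and Irx3os had their lowest stage mean at P03. Those lower were Eya1, Cdh22, Sult1e1, Krt23, Saa2, Entpd5, Lamp5, Elavl4, Pdyn, Pkp1, Galnt15 and Saa1.

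Krt222, a keratin-like gene, was tight at P03, at -2.89, -2.98, -2.74 and -2.84, and was at -1.34, -1.82 and -0.61 at P05. The spread was wider at P05. The difference was 1.60 ± 0.32 (adjusted p = 0.163 in limma), and with the image run as a block Krt222 rose by 1.60 (adjusted p = 0.00653, limma). Its stage mean was -1.41 at P01, -2.86 at P03 and -1.26 at P05, so the P05 level was near that of P01. Cdh22, a cadherin, was at 0.75, 1.36, 1.37 and 0.52 at P03 and at -0.67, -0.28 and -0.72 at P05. Its difference was -1.56 ± 0.30 (adjusted p = 0.163 in limma), and with the image run as a block it fell by 1.66 (adjusted p = 0.00653, limma).

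Ang3 and Ang4, ribonucleases of the angiogenin family, differed by 1.40 ± 0.29 and 1.24 ± 0.27. On P05 array 1 they were at 1.07 and 1.06, above their P03 ranges of 0.13 to 0.80 and 0.13 to 0.58. On P05 arrays 2 and 3 they were between 1.91 and 2.43. The family members are close in sequence, and whether the probes tell them apart was not tested. Dio1, the deiodinase that activates thyroid hormone in kidney, was at 3.00, 2.71, 2.36 and 2.65 at P03 and at 3.00, 4.16 and 3.81 at P05. P05 array 1 equalled the highest P03 array to 2 decimals, and the difference was 0.98 ± 0.22. Pla2g5, a secreted phospholipase, differed by 0.96 ± 0.20, and it rose by 1.48 from P05 to P07 (adjusted p = 0.00100, limma). Glod5, a glyoxalase domain protein, differed by 1.09 ± 0.24. Serpind1, heparin cofactor II, differed by 1.98 ± 0.48 and Fabp7, a fatty acid binding protein, by 1.33 ± 0.29.

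On the lower side, Sult1e1, the oestrogen sulfotransferase, was at 2.64, 3.76, 2.43 and 1.54 at P03 and at 0.10, 1.40 and 0.66 at P05. The highest P05 array came close to the lowest P03 array, and the difference was -1.88 ± 0.39. Krt23, a keratin, was between 5.17 and 5.60 at P03 and between 3.96 and 4.22 at P05, a difference of -1.26 ± 0.27. Lamp5, a lysosome-associated membrane protein, differed by -2.43 ± 0.50, with P05 array 3 at 0.19 and P05 arrays 1 and 2 at 2.04 and 2.73. Saa2 and Saa1, acute-phase serum amyloid proteins with near-identical sequences, differed by -1.73 ± 0.39 and -1.20 ± 0.33. P03 array 3 was the highest for both. Elavl4, an RNA-binding protein known from neurons, differed by -1.84 ± 0.47, and it fell by 2.47 from P05 to P07 (adjusted p = 0.0236, limma).

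**Figure D4:**
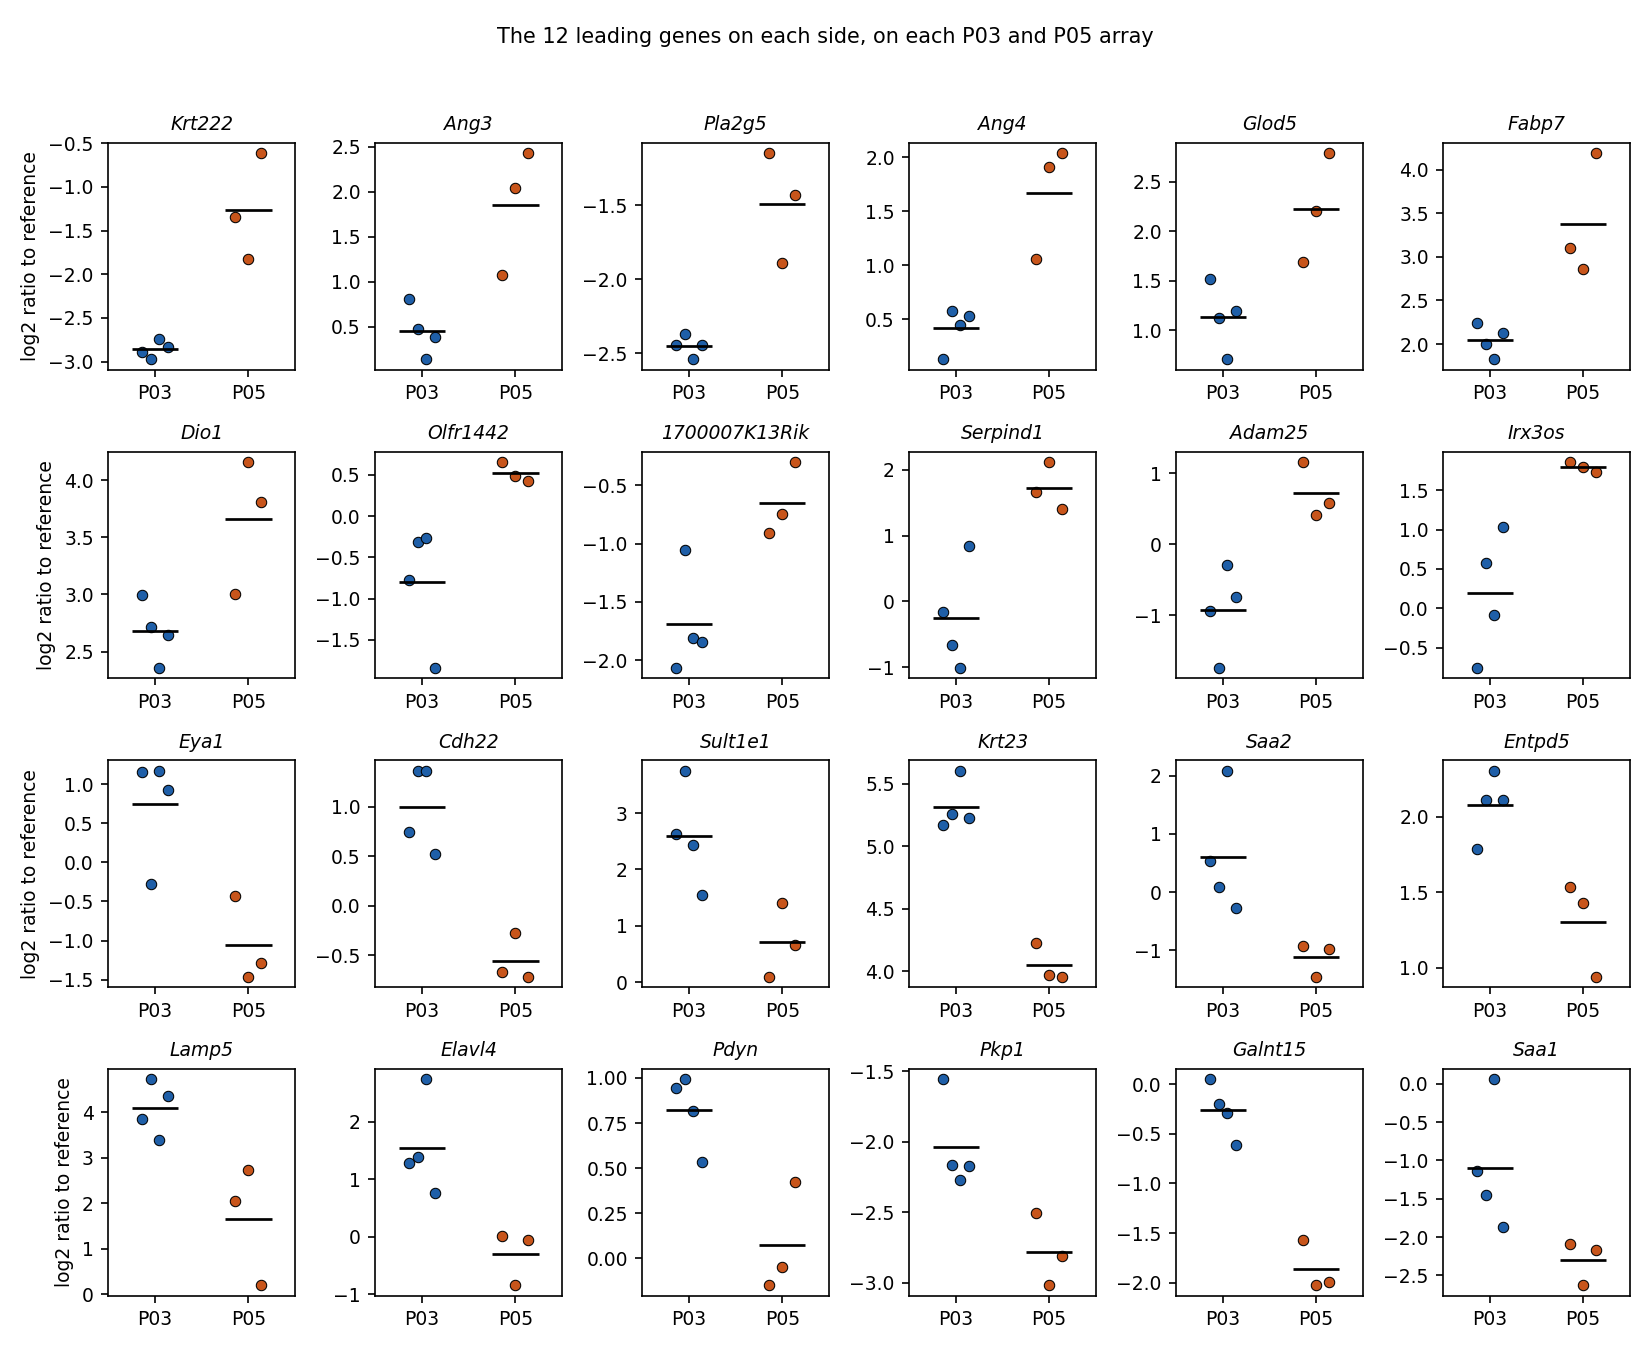
Each panel plots the log2 ratio to the reference of 1 of the 24 leading genes (vertical axis, its own range) on the 4 P03 arrays (blue) and 3 P05 arrays (orange), with bars at the group means. The upper 2 rows are higher at P05 and the lower 2 rows lower, with no overlap because the genes were chosen so, and none passed the adjusted threshold in the fit over all arrays.

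Genes of cell division had differences mostly above 0. Of 30 mitosis genes, 27 were above 0, against 8807 of 16908 over all genes tested. Their median was 0.23, with a range of -0.22 to 0.46. Of these 30, 0 had an unadjusted p under 0.05, against 2.91% of all genes in either direction. Cenpa, the centromeric histone, differed by 0.46 ± 0.26 and Birc5, the chromosomal passenger survivin, by 0.42 ± 0.32. The median of the list was between -1.47 and -0.82 on the P03 arrays and between -1.27 and -0.92 on the P05 arrays, so the stages overlapped. For P07 minus P05 the list median was -0.84. The DNA replication list had a median of 0.08 over 28 genes, which turned to -0.06 with the image run as a block, and that of mitosis was then 0.16.

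Among the lists of the mature nephron, that of the proximal tubule had a median of 0.19 (0.13 with the image run as a block). Of its 34 members, 23 were above 0. At an unadjusted p under 0.05, 2 were higher (Slc13a1 and Slc5a1), against 1.83% of all genes. Slc13a1, the sulfate transporter, was at 7.69, 8.80, 5.63 and 8.08 at P03 and at 7.19, 10.05 and 10.76 at P05. The arrays overlapped, P05 array 1 being below 3 of the P03 arrays, and the difference was 1.78 ± 0.72. This is 1 of 2 probes, and the unused probe gave -0.55. Slc5a1, a glucose transporter, differed by 0.50 ± 0.23. Slc26a4, the pendrin exchanger of intercalated cells, was at 5.24, 5.60, 4.48 and 5.03 at P03 and at 5.83, 5.88 and 5.81 at P05, above every P03 array by a small margin, a difference of 0.76 ± 0.22. Agtr1a, the angiotensin receptor, differed by 0.50 ± 0.20 without overlap, while Agtr2, the fetal form, differed by -0.75 ± 0.58 with overlap. The stage mean of Agtr1a was 4.78 at P01, 3.98 at P03 and 4.48 at P05, so its P05 mean stayed below that of P01. Slc12a1, the cotransporter of the thick ascending limb, differed by -0.38 ± 0.18. The podocyte list had a median of 0.06 (-0.06 with the image run as a block) and the thick limb list of -0.06. The distal tubule list had a median of -0.12, with 10 of 13 members below 0. Its lowest member, Pvalb, a calcium-binding protein that is on the skeletal muscle list too, was at 3.67, 2.96 and 3.47 on the 3 P03 arrays that measured it and at 1.10, 2.21 and 2.73 at P05. These arrays did not overlap. Its difference was -1.35 ± 0.42 (adjusted p = 0.896 in limma), and Pvalb rose by 2.39 from P05 to P07 (adjusted p = 0.00928, limma).

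Growth and metabolism lists were read next. The imprinted growth list had a median of -0.21, with 12 of 15 members below 0. Peg3, an imprinted zinc finger gene, differed by -0.55 ± 0.33 without overlap. The ribosomal protein list had a median of -0.15. At an unadjusted p under 0.05, 2 of its 15 members were lower, against 1.08% of all genes. They were Rpl13 (-0.34 ± 0.16) and Rpl8 (-0.37 ± 0.18). Fatty acid oxidation was at -0.10, the respiratory chain at 0.03 and cholesterol synthesis at 0.02. Mt2, a metallothionein that glucocorticoids induce, was at -1.44, 0.33, 0.13 and -1.17 at P03 and at 1.16, 0.79 and 0.66 at P05, a difference of 1.41 ± 0.40 without overlap. The median of its glucocorticoid list was -0.19. Mt1, another metallothionein, overlapped between the stages, with a difference of 0.76 ± 0.41. Within run 1 Mt2 differed by 0.46 and Mt1 by 0.083, and within run 3 by 1.98 and 1.70. Lum, the proteoglycan lumican, differed by 1.53 ± 0.43, from between -0.03 and 1.79 at P03 to between 1.80 and 3.45 at P05. P03 array 4 and P05 array 1 were nearly equal.

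Adipose genes stood first among the markers of other tissues. Of 8 adipose genes tested, 7 were above 0, with a median of 1.46 (1.83 with the image run as a block), the highest of all lists. At an unadjusted p under 0.05, 2 were higher, against 1.83% of all genes. Ucp1, the uncoupling protein of brown fat, was at 4.73, -0.27, 1.76 and 5.88 at P03 and at 6.40, 6.67 and 6.06 at P05. The P03 arrays were far apart, with arrays 2 and 3 low, and the difference of 3.35 ± 1.05 had an adjusted p of 0.856 in limma. Cidea, a lipid droplet protein, was at 4.46, 2.00, 2.58 and 5.10 at P03 and between 5.91 and 6.17 at P05. The list median per array, over members measured on all arrays, ran from 1.76 to 5.81 at P03 and from 5.91 to 6.17 at P05, and Cidea, Adipoq and Fabp4 were above 0 on all 7 arrays. With that median as a covariate, a setting chosen after the data were seen, Eya1 differed by -1.76 and Six2 by -1.37. Neither passed, with adjusted p of 0.501 and 1.00 in limma, and the part of adipose RNA in the other differences was not tested.

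The skeletal muscle list had a median of 0.51 (0.25 with the image run as a block), with 8 of 11 members above 0. Its array medians overlapped, from -2.14 to -0.71 at P03 and from -1.85 to -0.71 at P05. The neutrophil granule list had a median of -0.21 (-0.45 with that block), with 9 of 11 members below 0. Lcn2, a neutrophil protein that injured tubules also make, was at -0.67, -1.77, -0.22 and -0.98 at P03 and at -2.13, -2.19 and -2.13 at P05. All P05 arrays were lower and close together, and the difference was -1.24 ± 0.37 (adjusted p = 0.774 in limma). The liver list had a median of 0.32, the urothelium list of 0.12, the erythroid list of 0.11, the leukocyte list of -0.04 and the adrenal list of -0.01.

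**Figure D5:**
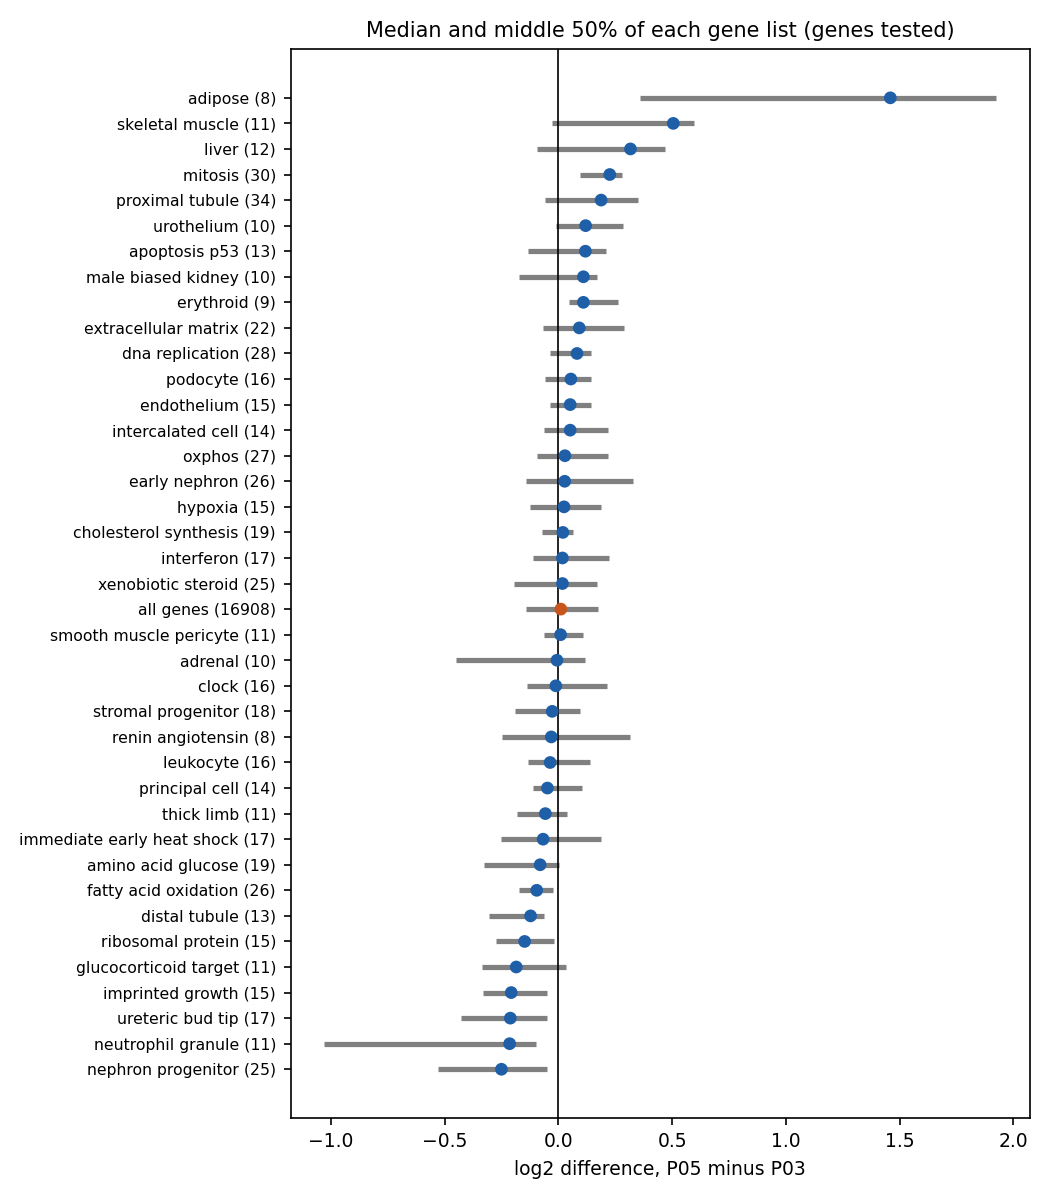
Points are the median log2 difference P05 minus P03 of each gene list and bars the middle 50% of its members, with the number of genes tested in brackets and all genes in orange. The sex-linked list, which follows the sex of the arrays, is left out. Nephron progenitor genes are lowest at -0.25 and adipose genes highest at 1.46.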

How the data were processed

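Kidney RNA was set against a common reference on 2-colour arrays. The deposited values hold a ratio per probe and array, read as log10 because they run from -3.25 to 4.00. Neither their scale nor the steps from image to ratio is stated in the labels. The log10 ratios were converted to log2 (factor 3.32), and if they were log2 already, every difference would shrink by that factor. Exact zeros, 12.9% to 21.5% of values on the 7 arrays, were taken as not measured. Spot intensities were not used here, so background and saturation were not checked, and the few arrays per stage set the precision.

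Of the 45220 probes, 202 lacked any value. The platform annotation gives 33653 probes a single gene symbol, leaves 11511 unlisted, and names several genes for 56, which were dropped. Probes of a gene were averaged where measured on all 32 arrays, and otherwise the most often measured probe was used. Of 18999 genes, those with 2 or more measured arrays at both P03 and P05 were tested.

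Tests used limma 3.58.1 in R 4.3.3 (data.table package, version 1.17.8) with 1 mean per stage over all arrays, moderated variances and Benjamini-Hochberg adjusted p-values at 0.05. Intervals are 95% intervals of the fit. Alternatives covered the image run, zeros, normalization, probes, filters, weights, the prior, Xist and each array left out, and 2 with covariates were added after the data were seen.

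Members and the 39 gene lists (646 of 698 entries with a value) were chosen with earlier results of these data known. Named genes are the 12 leading genes per side by unadjusted p without overlap, members of the progenitor, early nephron, bud tip and stromal lists, up to 4 members of smallest p of every other list, and Xist and Eif2s3y. Start regions came from RefSeq, and none was found for Eya1 or Hey1.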

Additional observations from a re-analysis of the deposited data

Results flagged for a closer look

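Within the 4 P03 arrays, 8 of 92 genes and 3 of 39 list medians had 1 array far from the others, by the gap to its neighbour as a share of the range. Chance marks about 1 in 20 such groups. P03 array 2, of run 1, stood apart in 7 of these 11 cases. Hes5 was at 4.21 there against 3.37 to 3.47 on the other P03 arrays, and Lhx1 at 5.83 against 4.98 to 5.08. Agmat was at 2.23 against 1.16 to 1.28 and Mcm5 at -0.74 against -0.44 to -0.38. The list medians on that array were 5.05 for intercalated cells, 4.46 for the renin-angiotensin system and 1.45 for stromal progenitors, above the other arrays of P03 for each. Without P03 array 2, Hes5 differed by 1.22 between P05 and P03.

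P03 array 3 was the only P03 array with female-type values, Xist at 2.36 and Eif2s3y at -4.77. Meis1 was at 1.41 on P03 array 4 against 1.70 to 1.74 elsewhere at P03, and Pkp1 at -1.56 on P03 array 1 against -2.27 to -2.17.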

How the results depend on the processing

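The counts are over all genes tested. Upward and downward calls for P05 minus P03, 0 and 0 as reported, were 1 and 2 with the image run as a block, alone or with Xist, and 2 and 2 with array weights. They were 0 to 5 and 0 to 3 with 1 array left out, and 0 and 0 under the other settings run. Calls against P03 minus P01, 0 as reported, were 1 with the run block, alone or with Xist, with quantile normalization and with array weights, and 0 to 1 with 1 array left out. Calls against P07 minus P05, 1 as reported, were 5 with array weights and 1 to 2 with 1 array left out, and Hes5 passed in each fit run. Eya1 stayed below 0 throughout, from -2.15 to -1.19, and passed in 5 settings. Six2 lay between -1.44 and -0.996, and Cdh22 between -1.71 and -1.43. The progenitor list median lay between -0.36 and 0.04.

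Signs turned for 20 genes, none past the threshold. In run 3 only, these were Uncx (0.14), Pax2 (0.043), Wt1 (0.080), Sall1 (0.076), Wnt4 (0.007), Fgf8 (0.36), Lhx1 (0.38), Sox9 (0.049), Gfra1 (0.81), Mcm5 (0.024), Xist (-3.28) and Eif2s3y (1.95). In run 1 only they were Sall1 (0.013), Crym (-0.41), Sox9 (0.12), Ret (-0.61), Slc5a1 (-0.19), Agmat (-0.093), Cyp2e1 (0.18) and Rpl13 (0.046). With the run block, Lhx1 was at 0.061 and Gfra1 at 0.29, and with Xist added Lhx1 was at 0.099, Sox9 at 0.015 and Gfra1 at 0.32. With array weights, Wnt4 was at 0.072, Fgf8 at 0.057, Lhx1 at 0.22 and Gfra1 at 0.057. With Xist alone, Lhx1 was at 0.10 and Sox9 at 0.063. With zeros kept, Sox9 was at 0.006 and Ret at -0.09, and with the most variable probe Uncx was at 0.12. With the adipose covariate, Fabp4 was at -0.033 and Adipoq at -0.97, as its construction from these genes implies. With 1 array left out, Uncx ranged from -1.05 to 0.016, Pax2 from -0.74 to 0.005, Sall1 from -0.59 to 0.11, Wnt4 from -0.46 to 0.14, Fgf8 from -0.40 to 0.015, Lhx1 from -0.16 to 0.23, Sox9 from -0.18 to 0.078, Gfra1 from -0.94 to 0.14 and Crym from -0.011 to 0.46. The other causes were not tested.

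The labels number no pairs. No paired analysis was possible because the groups share no replicate numbers in the labels. The fit on run 1 alone has 1 array per stage and gave no test.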
